A study of Mus musculus with 20 samples.

Results

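Collagen genes were taken as the kept genes of the deposited count table whose symbol has the form Col, number, a, number. There were 42 of them among the 18169 genes that the authors kept, out of 39253 in the table. Another 2 collagen symbols in the table, Col9a1 and Col19a1, were not kept by the authors, with at most 8 and 11 estimated counts in any mouse. A filter on low counts then left 41 members among 17810 tested genes, and Col2a1, the chain of cartilage collagen, did not pass it. The members fell into 11 fibrillar collagens, 8 basement membrane collagens and 23 others.

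Libraries made with an mRNA kit were sequenced from antral follicles of 20 female CD-1 mice, 1 mouse per library. CD-1 is an outbred stock, so the mice were not genetically identical. Mice started at 40 days of age and drank for 35 days either plain water (10 controls) or water with iodoacetic acid at 10 mg/L (5 mice) or 500 mg/L (5 mice). Iodoacetic acid is a by-product of water disinfection. At 75 days of age, in diestrus, 30 to 40 follicles of 220 to 400 µm were dissected from each mouse. Experiment 1 held the mice at 500 mg/L with control replicates 6 to 10, and experiment 2 held the mice at 10 mg/L with control replicates 1 to 5. Every dose therefore has 5 controls of its own, and both doses share the pooled control group.

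Collagens are proteins of the extracellular matrix in which 3 chains wind into a triple helix. Fibrillar collagens such as types I and III form the fibrils of connective tissue, including the theca around a follicle. Type IV collagen forms a sheet-like network in basement membranes, such as the follicular basal lamina between granulosa and theca cells and the lamina around blood vessels. Type VI collagen forms beaded filaments beside cells, and the remaining types decorate fibrils, span cell membranes or form other networks.

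Library totals ran from 39856751 to 67490019 estimated counts. The common biological coefficient of variation between mice was 25.0%, so the spread between mice rather than counting error limited precision for most members. All 8 granulosa, 6 theca, 11 endothelial and 7 oocyte markers averaged at least 1 CPM (counts per 1000000 counts of the library). Their summed levels ran over all mice from 6401 to 12768, 1121 to 4674, 320 to 580 and 287 to 639 CPM. Markers of stromal fibroblasts summed to 276 to 840 CPM, with Pi16 under 1 CPM, and those of smooth muscle and pericytes to 545 to 1305 CPM. Leukocyte markers summed to 20.3 to 73.7 CPM, surface epithelium to 9.06 to 35.6 CPM with Upk1b under 1 CPM, and luteal cells to 294 to 3539 CPM. Control replicate 7 had the highest theca, stromal, leukocyte, surface epithelium and luteal sums of all mice, and some results below are given with and without it. In bulk RNA, fewer cells of a type and less RNA per cell cannot be told apart, and this holds for every level below.

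Together the 42 members took 0.595% ± 0.147 (SD, n = 20) of the scaled library total used for CPM. This ran from 0.396% in 10 mg/L replicate 3 to 0.893% in 10 mg/L replicate 2. Fibrillar collagens made up 43.9% of the summed collagen CPM, basement membrane collagens 34.2% and the others 21.9%. After division by transcript length the shares were 43.2%, 30.9% and 25.9%. There were 13 members with a mean of at least 100 CPM, 12 from 10 to under 100, 14 from 1 to under 10 and 3 under 1 CPM. Per kilobase of transcript, the scale on which genes of unequal length can be compared, Col4a1, Col3a1 and Col1a2 led with mean levels of 157, 155 and 139 CPM per kb. The next were Col6a1, Col4a2 and Col1a1 at 85.4, 79.7 and 60.1 CPM per kb.

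**Figure D1:**
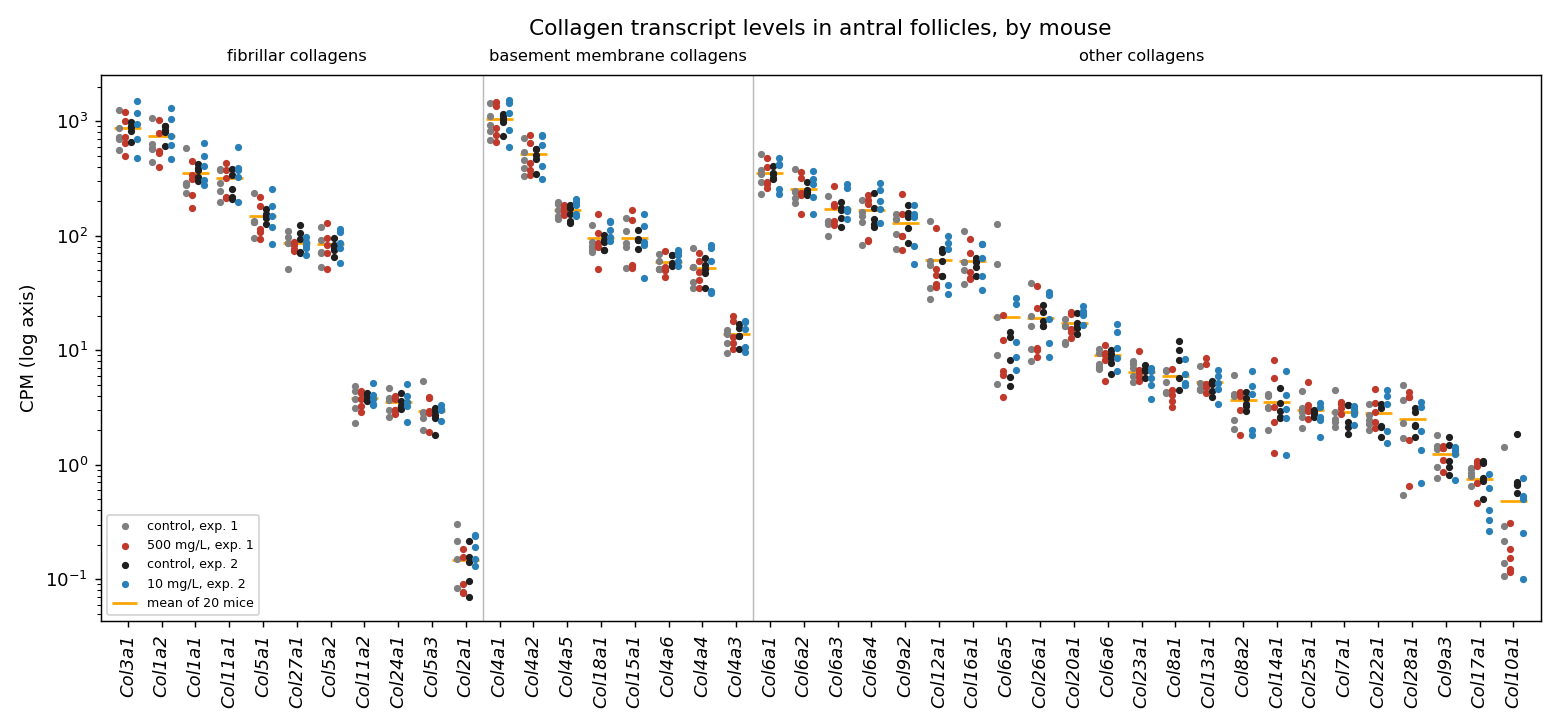
Level of each of the 42 collagen genes (CPM, log axis) in each of the 20 mice, by class and mean level, with an orange bar for the mean of 20 mice. Means run from 0.148 CPM for Col2a1 to 1037 CPM for Col4a1, and the points of the 4 sets of mice lie among each other (1 value of 0, for Col2a1, cannot be drawn on a log axis).

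Col4a1 (Entrez 12826) and Col4a2 (12827) encode the chains that join in nearly all basement membranes. Col4a1 measured 929, 1435, 819, 1112 and 691 CPM in control replicates 6 to 10 and 1154, 980, 1045, 738 and 1116 CPM in replicates 1 to 5. It measured 844, 1542, 601, 1180 and 1438 CPM at 10 mg/L and 879, 759, 661, 1347 and 1480 CPM at 500 mg/L. Each exposed group thus held mice above the highest and mice below the lowest of the 10 controls, and all sets overlapped. Col4a2 averaged 490 ± 118 CPM in the controls (SD, n = 10), 567 ± 201 at 10 mg/L and 509 ± 183 at 500 mg/L (SD, n = 5 each). The ratio of Col4a1 to Col4a2 was nearly fixed, at 2.02 ± 0.0673 (SD, n = 20) with a range of 1.89 to 2.11, although Col4a1 itself spanned 2.57-fold between mice. Per kb the ratio was 1.97 ± 0.0656. The chains are known to assemble as 2 of the first with 1 of the second, and RNA levels are not a measure of that assembly.

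The other type IV chains were at lower levels. Col4a3 and Col4a4, chains known from kidney and other specialised basement membranes, averaged 13.8 ± 3.10 and 52.6 ± 16.1 CPM (SD, n = 20), or 1.62 and 5.21 CPM per kb. Col4a5 and Col4a6, X-linked chains, averaged 168 ± 22.5 and 59.2 ± 9.16 CPM, or 25.7 and 8.91 CPM per kb. They were the steadiest of the members: Col4a5 spanned 1.60-fold and Col4a6 1.70-fold between the highest and lowest of 20 mice. Col18a1 and Col15a1, basement membrane zone collagens that carry the endostatin-type end fragments, averaged 95.8 ± 25.3 and 94.6 ± 35.9 CPM.

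The 6 type IV genes lie in head-to-head pairs, each pair with its starts close together on opposite strands. In the GENCODE M21 annotation of build GRCm38, the first exons of Col4a1 and Col4a2 overlap by 22 bases on chromosome 8. The starts of Col4a4 and the earliest Col4a3 transcript leave 71 bases between them on chromosome 1, and those of Col4a6 and Col4a5 leave 1308 bases on the X chromosome. The stretch between Col4a4 and Col4a3 is shown whole because its length is what sets the pair apart, the 250 bases before Col4a6 because they face the wider gap of the third pair, and the 250 bases before Col3a1 as those of the leading fibrillar member. Sequences are RefSeq's for GRCm38.p6, a different build from the authors' GRCm39, and read 5′ to 3′ on the strand of the gene named first. Capitals mark matches, at any distance from the start, to letters of the CCAAT box (CCAAT), GC box (GGGCGG) or TATA box (TATAAA). Both strands were searched, and the matches found had no overlaps.
Between Col4a4 and Col4a3, chr1:82586850-82586920, minus strand: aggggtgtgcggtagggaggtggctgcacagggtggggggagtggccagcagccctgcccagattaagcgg
Before Col4a6, chrX:141474077-141474326, minus strand: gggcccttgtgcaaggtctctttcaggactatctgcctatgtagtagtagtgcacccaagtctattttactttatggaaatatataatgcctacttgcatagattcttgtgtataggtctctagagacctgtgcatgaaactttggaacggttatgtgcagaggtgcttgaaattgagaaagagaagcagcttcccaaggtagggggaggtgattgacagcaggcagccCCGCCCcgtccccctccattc
Before Col3a1, chr1:45311288-45311537, plus strand: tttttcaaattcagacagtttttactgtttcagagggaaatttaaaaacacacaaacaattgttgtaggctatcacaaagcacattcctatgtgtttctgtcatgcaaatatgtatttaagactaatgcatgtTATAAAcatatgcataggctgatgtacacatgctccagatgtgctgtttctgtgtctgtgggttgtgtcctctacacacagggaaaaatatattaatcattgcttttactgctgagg

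The 71 bases between Col4a4 and Col4a3 held none of the 3 motifs and were 69.0% G or C. The 250 bases before Col4a6 held 1 GGGCGG match on the reverse strand, and those before Col3a1 held 1 TATAAA. RefSeq start windows matched 33 of the 42 members with 35 windows. Of these, 62.9% held GGGCGG, 34.3% CCAAT and 14.3% TATAAA in the 250 bases before the start, against 32.7%, 33.8% and 12.4% of all 32851 windows. A match describes letters anywhere in a window, not a working promoter box or binding.

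Across mice, members of a pair moved together to different degrees. The 16 pairs were chains of 1 molecule, head-to-head genes, collagens of different types within 1 class, or a collagen with a chaperone or cell marker. Pearson's r of log2 CPM and Spearman's rho were taken with permutation p-values from 100000 resamples, two-sided, adjusted over the 16 pairs. The smallest p these resamples can give is 1e-05. Col4a1 and Col4a2 had r = 0.994 and rho = 0.997 (n = 20, permutation p = 1e-05 and 1e-05, adjusted 2.67e-05 and 4e-05). Without the 2 mice farthest from the Col4a1 median r was 0.995, and it was 0.996 in experiment 1 and 0.992 in experiment 2. Col4a3 and Col4a4 had r = 0.890 and rho = 0.898 (permutation p = 1e-05 and 1e-05, adjusted 2.67e-05 and 4e-05), with 0.880 without 2 mice, and 0.801 and 0.976 within the experiments. Col4a5 and Col4a6, the pair with the widest gap, had r = 0.627 and rho = 0.570 (permutation p = 0.00371 and 0.0101, adjusted 0.00457 and 0.0116). Without 2 mice their r was 0.686. Within experiment 2 it was 0.943, and within experiment 1 it was 0.597 with an adjusted permutation p of 0.0800. Both genes of a pair are read from the same library and share its cell makeup. Whether these correlations differ between the pairs was not tested.

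Among fibrillar collagens, Col3a1 (Entrez 12825), Col1a2 (12843) and Col1a1 (12842) were the highest per kb. Col3a1, the type III chain of elastic connective tissue, measured 731, 1255, 700, 873 and 558 CPM in control replicates 6 to 10 and 826, 893, 906, 659 and 989 CPM in replicates 1 to 5. It measured 693, 1494, 480, 937 and 1190 CPM at 10 mg/L and 731, 649, 495, 1011 and 1204 CPM at 500 mg/L. The highest and the lowest mouse of all 20 were both in the 10 mg/L group.

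Col1a1, the main type I chain, measured 286, 586, 276, 280 and 237 CPM in control replicates 6 to 10 and 377, 329, 391, 302 and 425 CPM in replicates 1 to 5. At 10 mg/L it measured 306, 645, 276, 406 and 496 CPM, and at 500 mg/L 227, 315, 174, 341 and 450 CPM. Control replicate 7 stood above the other controls and overlapped the upper exposed mice. Its partner Col1a2 averaged 737 ± 197 CPM in the controls (SD, n = 10), 840 ± 338 at 10 mg/L and 658 ± 249 at 500 mg/L (SD, n = 5 each). Per kb, Col1a1 was at 0.436 ± 0.0501 (SD, n = 20) of Col1a2, the reverse of the known assembly of 2 Col1a1 chains with 1 Col1a2 chain. RNA levels alone do not measure chain use.

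Col1a1 and Col1a2 had r = 0.940 and rho = 0.937 (n = 20, permutation p = 1e-05 and 1e-05, adjusted 2.67e-05 and 4e-05), 0.907 without the 2 farthest mice, and 0.939 and 0.926 within the experiments. Col1a1 and Col3a1 had r = 0.890 and rho = 0.869 (permutation p = 1e-05 and 2e-05, adjusted 2.67e-05 and 5.33e-05). Without 2 mice that r was 0.830, and within the experiments 0.900 and 0.947. Col5a1 and Col5a2, chains of the type V collagen that starts fibrils, averaged 149 ± 46.5 and 83.9 ± 21.6 CPM and had r = 0.887 and rho = 0.859 (permutation p = 1e-05 and 1e-05, adjusted 2.67e-05 and 4e-05). Without 2 mice their r was 0.875, and within the experiments 0.924 and 0.848.

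**Figure D2:**
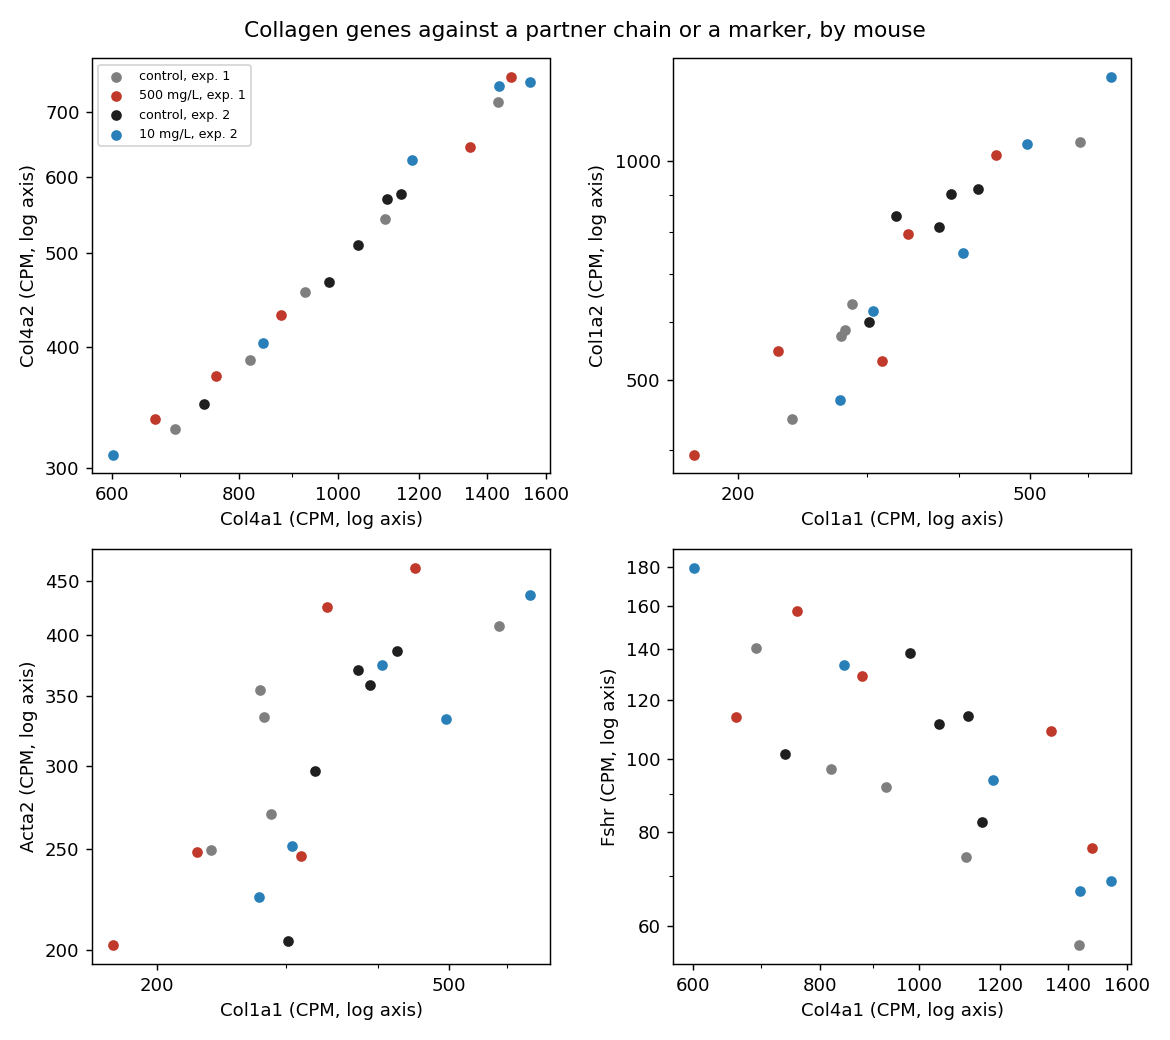
Levels of 4 pairs of genes in the 20 mice (CPM, log axes), coloured by set of mice. Col4a2 follows Col4a1 with r = 0.994 and Col1a2 follows Col1a1 with r = 0.940, Acta2 rises with Col1a1 (r = 0.768) and Fshr falls with Col4a1 (r = -0.783).

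Col11a1, a fibrillar chain known from cartilage, did not follow the type I genes. It averaged 316 ± 101 CPM (SD, n = 20), or 41.3 CPM per kb, and measured 248, 288, 197, 384 and 371 CPM in control replicates 6 to 10 and 339, 209, 258, 379 and 218 CPM in replicates 1 to 5. At 10 mg/L it measured 593, 373, 328, 195 and 391 CPM, and at 500 mg/L 375, 433, 318, 213 and 219 CPM. The highest mouse was 10 mg/L replicate 1, in which Col1a1 was below the mean of that group. Col27a1, another fibrillar chain, averaged 86.1 ± 16.2 CPM. Col11a2, Col24a1 and Col5a3, minor fibrillar chains, averaged 3.81, 3.49 and 2.96 CPM, and Col2a1 averaged 0.148 CPM.

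The 23 other collagens were led by type VI, which made up 16.4% of the summed collagen CPM with 6 chains. Col6a1, Col6a2 and Col6a3, the chains of the common type VI molecule, averaged 350 ± 83.0, 258 ± 64.6 and 172 ± 52.2 CPM (SD, n = 20). Col6a1 and Col6a2 had r = 0.910 and rho = 0.893 (permutation p = 1e-05 and 2e-05, adjusted 2.67e-05 and 5.33e-05), with 0.873 without 2 mice, and 0.885 and 0.945 within the experiments. Col6a1 and Col6a3 had r = 0.743 and rho = 0.671 (permutation p = 0.00016 and 0.0016, adjusted 0.000284 and 0.00233), with 0.741 without 2 mice, and 0.812 and 0.671 within the experiments. By set, Col6a1 ran from 232 to 512 CPM in the controls, 232 to 478 at 10 mg/L and 262 to 473 at 500 mg/L. Col6a2 ran from 194 to 379, 156 to 368 and 153 to 360 CPM, and Col6a3 from 99.2 to 223, 140 to 280 and 125 to 270 CPM in the same order. For Col6a1 and Col6a2 the ranges overlapped widely. For Col6a3, 5 of 10 controls were below every mouse at 10 mg/L and 2 of 5 mice at 10 mg/L were above every control. Col6a4, Col6a5 and Col6a6, the chains that can stand in for Col6a3, averaged 168 ± 56.5, 19.7 ± 28.1 and 9.16 ± 2.70 CPM.

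Col6a5 (Entrez 665033) was the most variable member, spanning 32.5-fold between mice. It measured 19.5, 127, 5.02, 56.8 and 9.02 CPM in control replicates 6 to 10 and 13.0, 8.21, 5.81, 14.4 and 4.84 CPM in replicates 1 to 5. The mice at 10 mg/L measured 6.73, 11.7, 8.67, 28.4 and 25.6 CPM, and at 500 mg/L 12.3, 3.92, 20.2, 6.62 and 6.12 CPM. Control replicates 7 and 9 stood above all other mice, and the remaining controls of experiment 1 overlapped every other set. In control replicate 7 the leukocyte, theca, luteal, stromal and surface epithelium marker sums were 73.7, 4674, 3539, 840 and 35.6 CPM, and their part in the Col6a5 level was not tested.

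**Figure D3:**
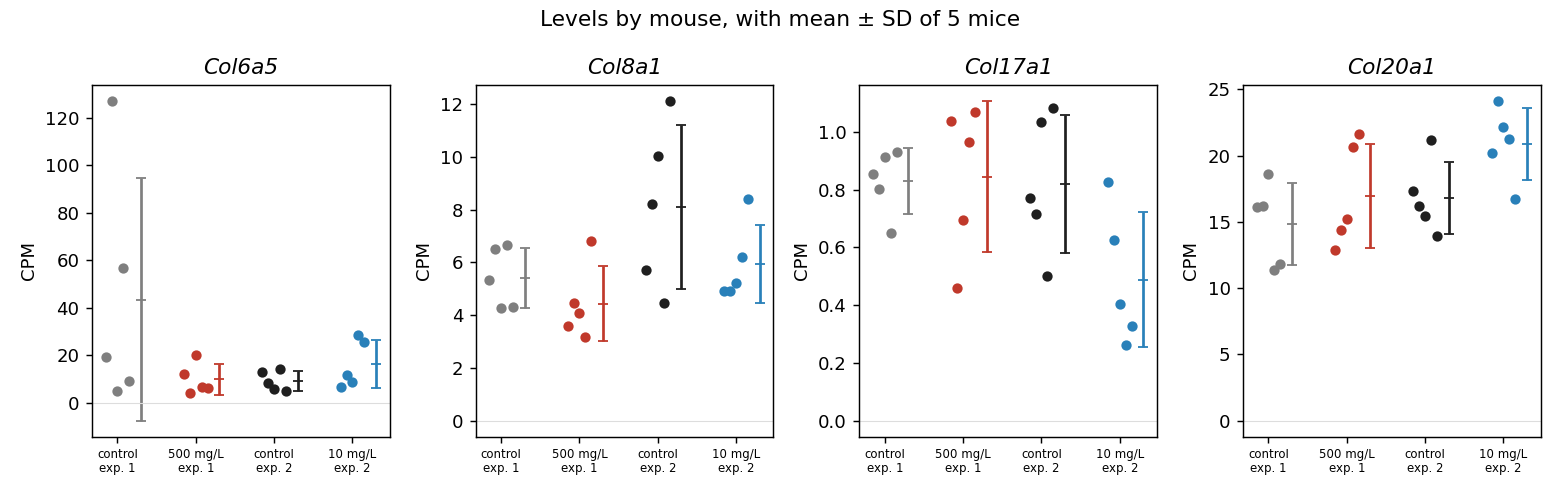
Levels of Col6a5, Col8a1, Col17a1 and Col20a1 (CPM) by mouse in the controls and exposed mice of each experiment, with mean ± SD of 5 mice beside the points. Col6a5 reaches 127 CPM in 1 control of experiment 1, Col8a1 is spread widely in the controls of experiment 2, and in every panel each dose overlaps its own controls.

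Of fibril-associated collagens, which sit on the surface of fibrils, Col9a2 averaged 129 ± 44.6 CPM, Col12a1 61.4 ± 29.4 and Col16a1 60.2 ± 20.1 (SD, n = 20), or 44.2, 5.33 and 11.6 CPM per kb. By set, Col9a2 ran from 76.3 to 185 CPM in the controls, 57.0 to 185 at 10 mg/L and 74.8 to 230 at 500 mg/L. Col9a3, a partner chain of Col9a2, was at 1.24 CPM and Col9a1 was not kept. Col20a1, Col14a1 and Col22a1 averaged 17.4, 3.54 and 2.81 CPM. The transmembrane members Col23a1, Col13a1, Col25a1 and Col17a1 averaged 6.45, 5.31, 2.98 and 0.746 CPM. The short-chain members Col8a1, Col8a2 and Col10a1, of which type VIII is known around vessels and type X from growth cartilage, averaged 5.97, 3.66 and 0.484 CPM. Col26a1, Col7a1 (the anchoring fibril chain) and Col28a1 averaged 19.0, 2.89 and 2.52 CPM.

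Of the other fixed pairs, Col12a1 and Col14a1 had r = 0.604 and rho = 0.606 (n = 20, permutation p = 0.00477 and 0.00581, adjusted 0.00545 and 0.00775), with 0.593 without 2 mice, and 0.572 and 0.694 within the experiments, the first of which did not pass (adjusted permutation p = 0.0907). Col15a1 and Col18a1 had r = 0.654 and rho = 0.580 (permutation p = 0.00176 and 0.00836, adjusted 0.00235 and 0.0103), with 0.653 without 2 mice, and 0.748 and 0.463 within the experiments, the second of which did not pass (adjusted permutation p = 0.194). Col8a1 and Col8a2 had r = 0.397 and rho = 0.439 (permutation p = 0.0827 and 0.0541, adjusted 0.0882 and 0.0577), so this pair did not pass. Its r was 0.440 without 2 mice, and 0.380 and 0.484 within the experiments.

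Smooth muscle, stromal and endothelial cells, known to make collagen, were each represented by a single marker, which rose with its paired collagen gene. The other markers of these cells, and all theca markers, were not set against a collagen. Shares of all genes at set values of r with Col1a1 are given below, and none was taken for Col4a1. Col1a1 and Acta2, smooth muscle actin, had r = 0.768 and rho = 0.782 (n = 20, permutation p = 6e-05 and 5e-05, adjusted 0.00012 and 0.000114), with 0.686 without 2 mice, and 0.814 and 0.836 within the experiments. Col1a1 and Dcn, the fibril-binding proteoglycan decorin, had r = 0.659 and rho = 0.722 (permutation p = 0.00157 and 0.00046, adjusted 0.00228 and 0.000736), with 0.621 without 2 mice, and 0.770 and 0.841 within the experiments. Col4a1 and Pecam1, an endothelial marker, had r = 0.718 and rho = 0.744 (permutation p = 0.00036 and 0.00023, adjusted 0.000576 and 0.000409), with 0.760 without 2 mice, and 0.820 and 0.645 within the experiments. In experiment 2 this pair did not pass (adjusted permutation p = 0.0527).

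Fshr, the follicle-stimulating hormone receptor of granulosa cells, went the other way and was the only one of the 8 granulosa markers set against a collagen. Its r with Col4a1 was -0.783 and its rho -0.753 (permutation p = 5e-05 and 0.00013, adjusted 0.000114 and 0.00026), with -0.756 without 2 mice, and -0.745 and -0.850 within the experiments. Col1a1 and Serpinh1, the collagen chaperone of the endoplasmic reticulum, had r = 0.312 and rho = 0.350 (permutation p = 0.180 and 0.130, adjusted 0.180 and 0.130) and did not pass. Without 2 mice r was 0.403, and the 2 experiments differed in sign, at 0.666 and -0.174. Serpinh1 itself ran only from 867 to 1226 CPM over the 20 mice.

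After these values had been seen, Col1a1 was also set against each of the 40 other tested members, with adjustment over those 40. In 35 of 40 the r was positive, 25 of those passed, and 10 had r above 0.8. Over the 17809 other tested genes, 47.4% had a positive r with Col1a1, 8.62% had an r at least as high as the lowest of the 25 (0.504), and 0.578% had r above 0.8. In the basement membrane class 7 of 8 passed, in the fibrillar class 5 of 9, and among the others 13 of 23. Of the 5 negative ones only Col28a1, at a mean of 2.52 CPM, passed, with r = -0.565 and rho = -0.611 (permutation p = 0.0092 and 0.00499, adjusted 0.0157 and 0.00907). Its r was -0.535 without 2 mice, -0.755 in experiment 1 and -0.249 in experiment 2. For Col11a1 and Col9a2 r with Col1a1 was -0.16 and -0.15, and for Col4a5 0.13, none of which passed.

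The shared pattern was visible mouse by mouse. In 500 mg/L replicate 5, 37 of 41 tested members lay above their own median over the 20 mice, in 10 mg/L replicates 2 and 5 it was 36, and in control replicate 7 it was 34. In 500 mg/L replicate 2 it was 3, in 10 mg/L replicate 3 and 500 mg/L replicate 3 it was 7, and in control replicate 10 it was 8. Over all tested genes the share above the median stayed between 48.0% and 51.2% in every mouse. The pooled controls and each dose thus held mice from both ends. Within the controls of experiment 2 the number ran only from 13 to 29. The granulosa marker sum was lowest in 10 mg/L replicate 5 and 500 mg/L replicate 5, at 6401 and 6559 CPM, and highest in 10 mg/L replicate 3 and 500 mg/L replicate 2, at 12768 and 12748 CPM. It did not follow the collagens in every mouse, with 9526 CPM in 10 mg/L replicate 2, 8055 in control replicate 7, 11949 in control replicate 10 and 8963 in 500 mg/L replicate 3. The part of cell makeup in the collagen levels was not tested.

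**Figure D4:**
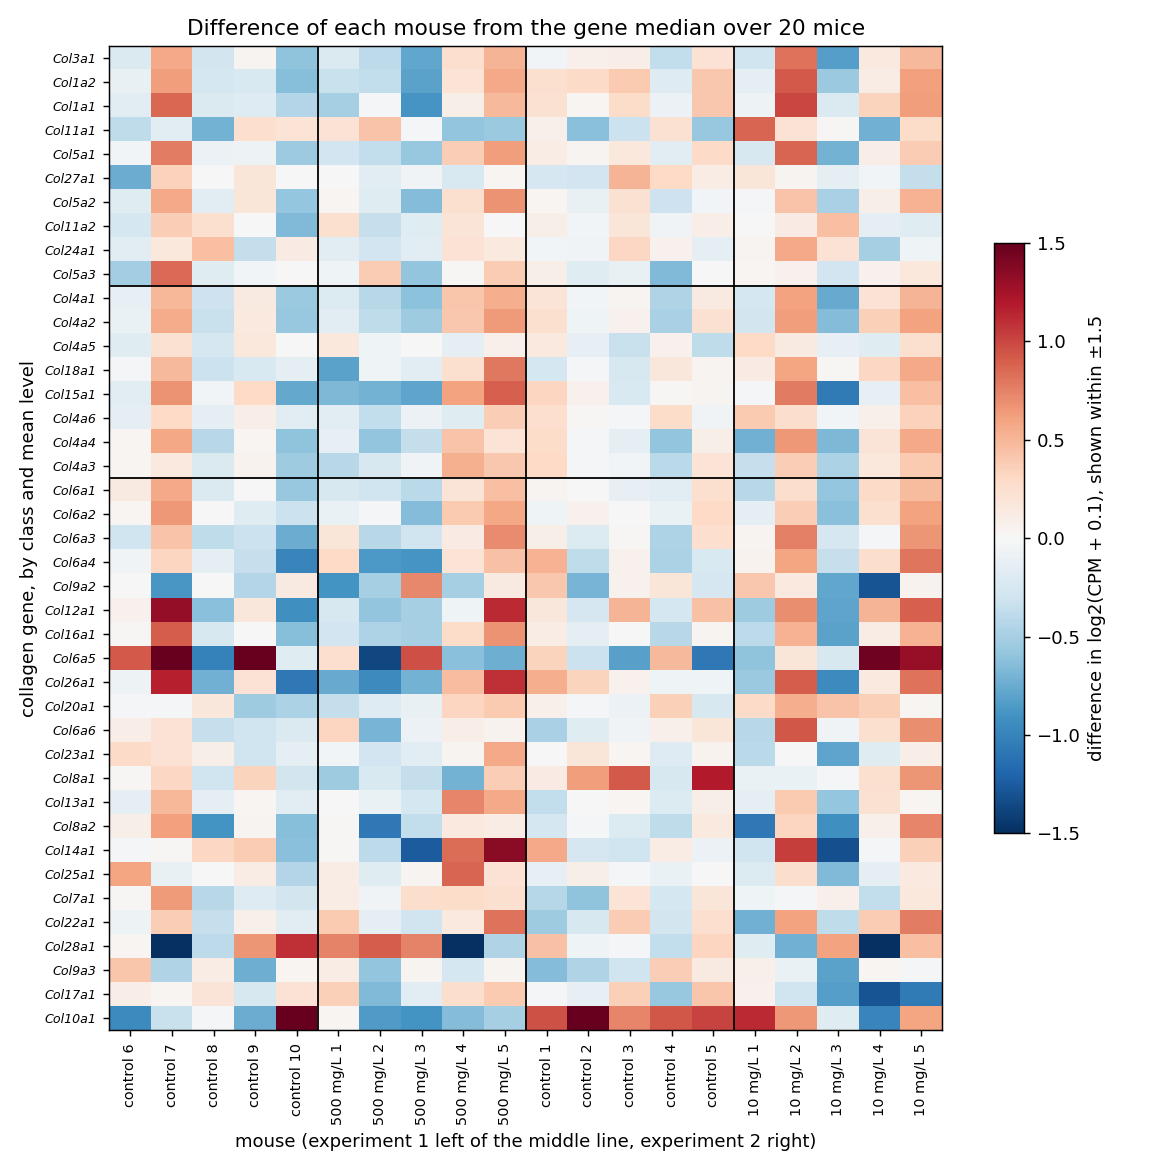
Difference of each of 20 mice from the median of the gene over all mice, in log2(CPM + 0.1), for 41 tested collagens by class and mean level (red higher, blue lower). Columns such as control 7, 10 mg/L 2 and 500 mg/L 5 are red over most rows, and 10 mg/L 3, 500 mg/L 2 and control 10 are blue over most rows.

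The first question of the design was how 10 mg/L compared with water. No collagen passed an adjusted p of 0.05 against the 10 pooled controls (edgeR quasi-likelihood F-test, two-sided, Benjamini-Hochberg over all tested genes), where 0.00561% of all genes did. DESeq2 and limma-voom also called 0 of 41. At an unadjusted p under 0.05, edgeR gave 3 of 41 members, DESeq2 5 and limma-voom 3, beside 6.22% of all genes in edgeR. The log2 change was above 0 in 31 of 41 members, with a median of 0.09, against 49.9% of all genes and a median of 0.00. By class it was 9 of 10 fibrillar (median 0.12), 8 of 8 basement membrane (0.16) and 14 of 23 other collagens (0.05). No member had exposed mice all above or all below the 10 controls, where 0.0955% of all genes did. The median moved with single mice that were high or low in most collagens: without 10 mg/L replicate 2 the median was -0.01, and without replicate 3 it was 0.25.

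Col20a1, a fibril-associated collagen of little known function, had the smallest p of any member at 10 mg/L. It measured 20.2, 24.1, 22.1, 21.2 and 16.8 CPM in the exposed mice, 17.3, 16.2, 15.5, 21.2 and 14.0 in their own controls and 16.2, 16.2, 18.6, 11.4 and 11.8 in the controls of experiment 1. Of the 5 exposed mice 3 were above every control, replicate 4 by less than the digits printed, and the others lay within the control range. The log2 change was 0.40 ± 0.14 (SE) with p = 0.00962 and an adjusted p of 0.714 in edgeR. Against its own controls the change was 0.31 ± 0.16 with an adjusted p of 0.785.

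Col6a6, a type VI chain, gave a log2 change of 0.45 ± 0.19 against all controls (edgeR adjusted p = 0.758), with 6.59, 16.9, 8.50, 10.4 and 14.3 CPM at 10 mg/L against a control range of 6.26 to 10.3. Its higher values came from replicates 2 and 5, the mice high in most collagens. Col18a1 gave 0.38 ± 0.18 (adjusted p = 0.795) and Col6a3 0.42 ± 0.20 (adjusted p = 0.795). On the other side, Col23a1 gave -0.26 ± 0.15 (adjusted p = 0.831) and Col8a1 -0.19 ± 0.25 (adjusted p = 0.934). Col17a1, a transmembrane collagen of epithelial attachment with a mean under 1 CPM, is named although the rule for named genes leaves such members out. It measured 0.826, 0.624, 0.402, 0.263 and 0.327 CPM at 10 mg/L, and from 0.501 to 1.08 CPM with a median of 0.829 in the 10 controls. The last 3 of those exposed mice were below every control. The log2 change was -0.75 ± 0.27 (p = 0.0111, edgeR adjusted p = 0.727).

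At 500 mg/L against the same pooled controls, again no collagen passed (edgeR), where 0.0112% of all genes did. DESeq2 and limma-voom called 0 as well. At an unadjusted p under 0.05 there were 2 members in edgeR, 3 in DESeq2 and 2 in limma-voom, beside 8.69% of all genes in edgeR. The change was above 0 in 22 of 41 members with a median of 0.02, where 49.9% of all genes were above 0. Without 500 mg/L replicate 5 the median was -0.12, and without replicate 2 it was 0.09. No member separated the groups completely, as 0.331% of all genes did. The fibrillar class had 3 of 10 above 0 (median -0.04) and the basement membrane class 5 of 8 (0.04). Both members with a small p belonged to the short-chain collagens, Col8a1 and Col10a1.

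Col8a1 (Entrez 12837) measured 3.60, 4.47, 4.07, 3.19 and 6.83 CPM at 500 mg/L. It measured 5.32, 6.53, 4.26, 6.65 and 4.33 CPM in the controls of experiment 1 and 5.72, 8.21, 10.0, 4.45 and 12.1 in those of experiment 2. The lowest mice were exposed, replicate 5 stood among the controls, and the highest values were controls of experiment 2. The log2 change against all controls was -0.61 ± 0.25 (p = 0.0245, edgeR adjusted p = 0.494). Against its own controls it was -0.29 ± 0.26 (adjusted p = 0.965), and from the controls of experiment 2 to those of experiment 1 it was -0.58 ± 0.26 (p = 0.0358, adjusted 0.469). Col10a1, also named outside the rule with a mean under 1 CPM, measured 0.309, 0.122, 0.116, 0.154 and 0.182 CPM at 500 mg/L. It measured 0.107, 0.217, 0.291, 0.139 and 1.42 CPM in the controls of experiment 1 and 0.676, 1.86, 0.565, 0.661 and 0.705 in those of experiment 2. Control replicate 10 was far above the other 4 controls of its experiment, which overlapped the exposed mice. Its log2 change was -1.91 ± 0.63 (p = 0.00629, edgeR adjusted p = 0.370), and -1.30 ± 0.66 against its own controls (adjusted p = 0.961), or -0.11 ± 0.55 without control replicate 10 (edgeR adjusted p = 0.981).

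Among members of at least 1 CPM at 500 mg/L, Col13a1, Col25a1 and Col7a1 had the smallest p among those above the controls, with log2 changes of 0.27 ± 0.18, 0.25 ± 0.18 and 0.25 ± 0.17 (edgeR adjusted p = 0.710, 0.754 and 0.730). For the highest members the log2 changes were 0.03 ± 0.22 for Col4a1, -0.04 ± 0.24 for Col3a1, -0.21 ± 0.24 for Col1a1 and -0.04 ± 0.19 for Col6a1. The same 4 genes gave, at 10 mg/L against the same controls, 0.16 ± 0.22, 0.19 ± 0.23, 0.29 ± 0.23 and 0.04 ± 0.18. All of these changes were smaller than 1.5 times their errors.

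The higher dose set directly against the lower gave no collagen at an adjusted p of 0.05 in edgeR, DESeq2 or limma-voom, with 0.0112% of all genes called in edgeR. By unadjusted p under 0.05 there were 2 in edgeR, 2 in DESeq2 and 2 in limma-voom, beside 10.0% of all genes in edgeR. The log2 change from 10 to 500 mg/L was above 0 in 11 of 41 members, with a median of -0.13, against 49.6% of all genes. No member separated the doses completely, as 2.17% of all genes did. All 6 type VI chains were lower (median -0.28), and all 4 transmembrane members were higher (median 0.32). Col6a2 was not lower in the authors' deposited table (fold change 1.003). Chains of a family were read from the same mice, and the transmembrane Col17a1 averaged only 0.746 CPM. Col4a6 gave -0.28 ± 0.12 (p = 0.0342, edgeR adjusted p = 0.459) and Col1a1 -0.50 ± 0.27 (adjusted p = 0.555). Col17a1 gave 0.78 ± 0.30 (p = 0.0176, adjusted 0.389), Col25a1 0.35 ± 0.22 and Col23a1 0.28 ± 0.18 (adjusted p = 0.604 and 0.622). This contrast also sets experiment 1 against experiment 2, so dose and experiment cannot be told apart in it. Leaving out 10 mg/L replicate 2 brought the median to -0.01, and leaving out replicate 3 brought it to -0.28.

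Comparing each dose only with the controls of its own experiment removes that difference. At 10 mg/L, 0 of 41 members passed in edgeR, DESeq2 and limma-voom (0% of all genes in edgeR), and 1 member in edgeR, 1 in DESeq2 and 2 in limma-voom had an unadjusted p under 0.05, beside 6.45% of all genes in edgeR. The change was above 0 in 32 of 41 members (50.1% of all genes), with medians of 0.12 for all members and 0.16 for the basement membrane class, where 8 of 8 were above 0. No member separated the groups completely, as 1.04% of all genes did. The member with the small p in edgeR was Col17a1 (-0.74 ± 0.31, adjusted p = 0.751). Col6a6, Col20a1 and Col18a1 had the smallest p among higher members of at least 1 CPM (0.44 ± 0.23, 0.31 ± 0.16 and 0.40 ± 0.22), and Col8a1, Col23a1 and Col27a1 among lower ones (-0.45 ± 0.26, -0.24 ± 0.18 and -0.16 ± 0.17). Without replicate 2 the median over all members was 0.01, and without replicate 3 it was 0.26.

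At 500 mg/L against its own controls, again 0 of 41 passed with the 3 tools (0% of all genes in edgeR), and 1 member in edgeR, 2 in DESeq2 and 0 in limma-voom had an unadjusted p under 0.05, beside 5.19% of all genes in edgeR. The change was above 0 in 22 of 41 members (50.5% of all genes), with a median of 0.01, or 0.18 without control replicate 7 and -0.12 without 500 mg/L replicate 5. No member separated the groups completely, as 0.932% of all genes did. Col6a3, Col20a1 and Col13a1 had the smallest p among higher members of at least 1 CPM (0.33 ± 0.24, 0.19 ± 0.16 and 0.21 ± 0.21), and Col8a1 and Col24a1 followed Col6a5 among lower ones (-0.29 ± 0.26 and -0.10 ± 0.19). Col6a5 was the member with the small p. It averaged 43.5 ± 51.1 CPM in the controls and 9.82 ± 6.56 at 500 mg/L (SD, n = 5 each). The log2 change was -2.15 ± 0.72 (p = 0.00794, edgeR adjusted p = 0.954). Without control replicate 7 the change was -1.20 (p = 0.0735). Against the pooled controls it was -1.43 ± 0.78 (adjusted p = 0.626), or -0.63 without that control.

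**Figure D5:**
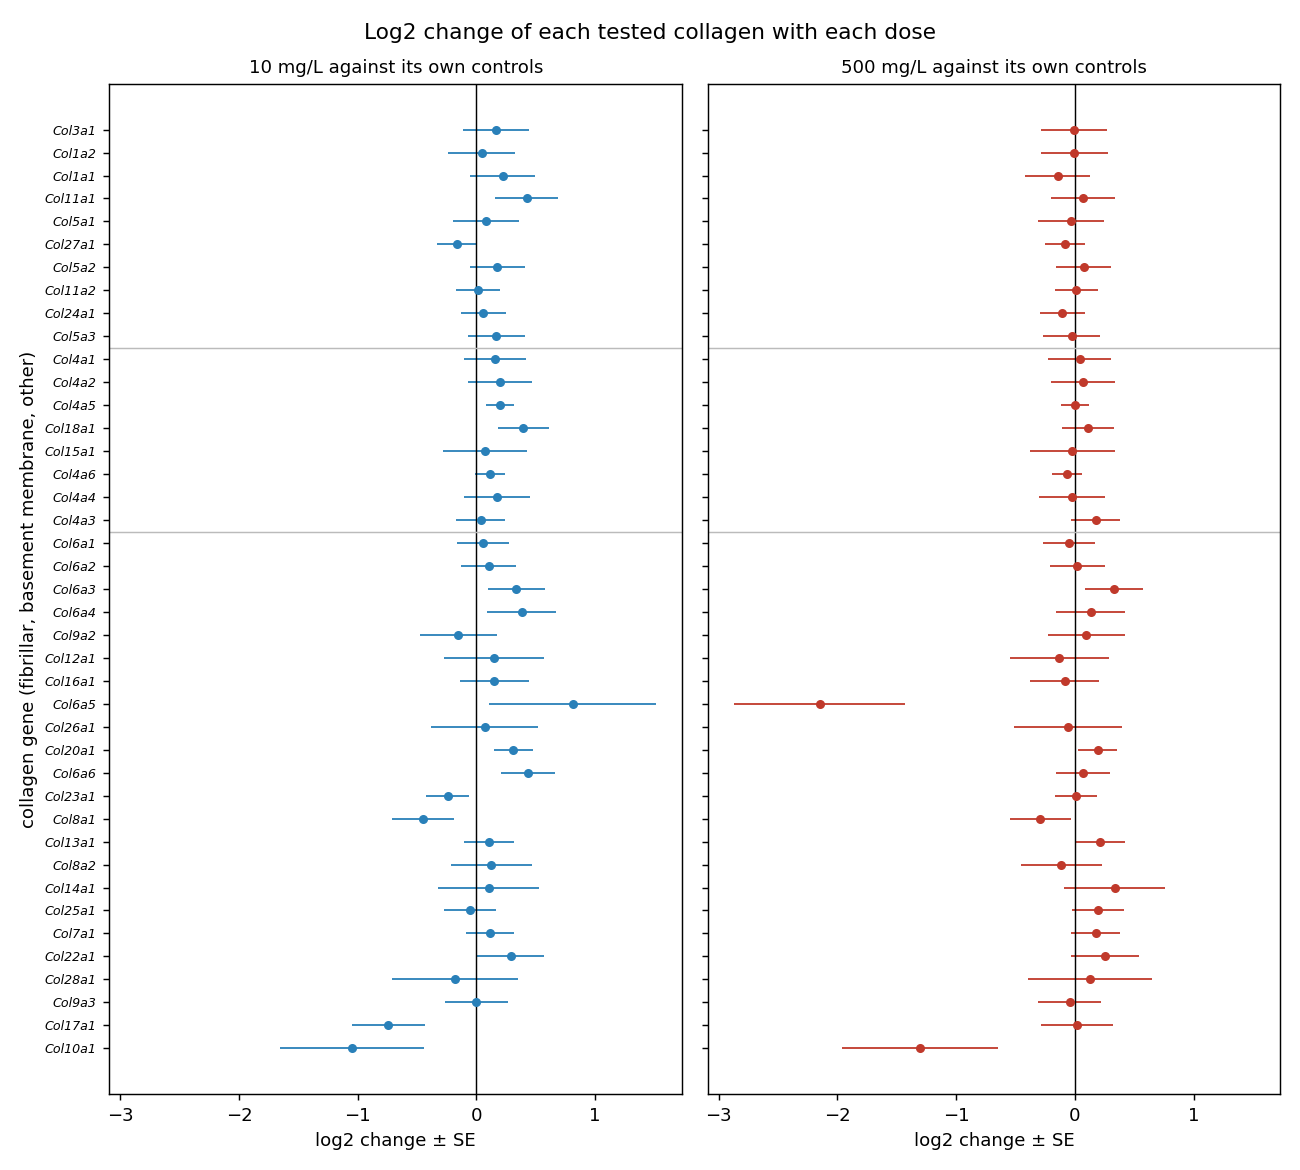
Log2 change ± SE of each of 41 tested collagens at 10 mg/L (left) and 500 mg/L (right) against the 5 controls of the same experiment, by class and mean level. Most points at 10 mg/L lie to the right of 0 (32 of 41) and those at 500 mg/L on both sides (22 of 41 above 0), none passes the adjusted threshold, and Col6a5 at 500 mg/L is the lowest point, at -2.15.

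The effects of the doses, each against its own controls, were also tested against each other. No collagen passed (edgeR, DESeq2 and limma-voom; 0% of all genes in edgeR). By unadjusted p under 0.05 there was 1 member in edgeR, 1 in DESeq2 and 0 in limma-voom, beside 5.41% of all genes in edgeR. That member was Col6a5, at -2.96 ± 1.00 (p = 0.00844, adjusted 0.865), or -2.01 (p = 0.0335) without control replicate 7. The difference was above 0 in 11 of 41 members (51.8% of all genes), with a median of -0.12, or 0.08 without control replicate 7 and -0.27 without 500 mg/L replicate 5. Among higher members of at least 1 CPM, Col23a1, Col25a1 and Col9a2 had the smallest p (0.25 ± 0.25, 0.25 ± 0.31 and 0.25 ± 0.46), and after Col6a5 among lower ones Col6a6 and Col4a5 (-0.37 ± 0.32 and -0.19 ± 0.17).

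Unexposed mice of the 2 experiments, run a month apart, gave the size of the difference that goes with the experiment. No collagen passed in edgeR, DESeq2 or limma-voom, while 0.157% of all genes passed in edgeR. At an unadjusted p under 0.05 there were 2 members in edgeR, 2 in DESeq2 and 1 in limma-voom, beside 9.78% of all genes in edgeR. The change from experiment 2 to experiment 1 was above 0 in 23 of 41 members (50.3% of all genes), with a median of 0.02. No member separated the control sets completely, as 3.10% of all genes did. Col6a5 gave 2.23 ± 0.72 from experiment 2 to experiment 1 (p = 0.0063, adjusted 0.298), or 1.29 (p = 0.0573) without control replicate 7. The sign of the median also turned without that mouse, to -0.15. After Col6a5 and Col8a1 (-0.58 ± 0.26) the next members by p were Col20a1 (-0.18 ± 0.16), Col1a2 (-0.29 ± 0.28), Col5a3 (0.25 ± 0.24) and Col4a5 (0.11 ± 0.12).

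The authors' deposited table, which has 42 of the collagens in it, likewise gave no collagen a false discovery rate under 0.05 in any comparison. Of all genes in the authors' deposited table, 0.611% were under 0.05 at 10 mg/L, 1.26% at 500 mg/L, 1.59% between the doses and 2.19% by the test over the 3 groups. In the authors' deposited table the smallest values were those of Col8a1 at 500 mg/L (fold change -1.47, false discovery rate 0.0742) and Col6a3 at 10 mg/L (fold change 1.30, false discovery rate 0.0796). By the test over the 3 groups in the authors' deposited table, 2 of 42 collagens were under 0.1, Col6a3 and Col8a1, beside 6.59% of all genes.

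Of the enzymes and chaperones that make and crosslink collagen, 35 were tested and none passed in any of the comparisons (edgeR), in which 0% to 0.157% of all genes passed. At 10 mg/L 13 of 35 were above the pooled controls (median -0.05), and at 500 mg/L 14 of 35 (median -0.02), where 49.9% of all genes were above 0 at each dose. P4ha1, a subunit of the prolyl hydroxylase that stabilises the helix, was at 183 ± 20.9 CPM (SD, n = 20). Against its own controls the log2 change at 10 mg/L was -0.31 ± 0.07 (p = 0.000291, edgeR adjusted p = 0.519), and all 5 exposed mice were below all 5 controls. In that comparison 1.04% of all genes separated the groups, in either direction. From the controls of experiment 2 to those of experiment 1 the P4ha1 change was -0.29 ± 0.07 (p = 0.000583, adjusted 0.131), again with no overlap, where 3.10% of all genes had none. Lox, a lysyl oxidase that starts crosslinks, gave -0.66 ± 0.22 and -0.67 ± 0.22 in the same comparisons (adjusted p = 0.644 and 0.290). In each of these comparisons the reference was the controls of experiment 2. Crtap, part of a prolyl hydroxylase complex, gave -0.18 ± 0.06 at 500 mg/L against all controls (p = 0.00444, edgeR adjusted p = 0.348), and all 5 exposed mice were below the 10 controls. Against all controls, 0.331% of all genes separated the groups at that dose, in either direction.

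Collagen receptors (11 tested), other basement membrane proteins (15) and fibril partners (14) also had no member past the threshold in any comparison (edgeR). Of the basement membrane proteins, 13 of 15 were above the pooled controls at 10 mg/L (median 0.17), as were 12 of 14 fibril partners (median 0.20) and 8 of 11 receptors (0.18). At 500 mg/L it was 10 of 15, 5 of 14 and 4 of 11. The share of all genes above 0 was 49.9% at each dose. Lama5, a laminin chain, gave 0.42 ± 0.17 at 10 mg/L (p = 0.0212, adjusted 0.758), and Lama3, also a laminin chain, 0.39 ± 0.15 at 500 mg/L against all controls (p = 0.0145, adjusted 0.458). Tnxb, tenascin-X, which binds fibrils, gave 0.98 ± 0.29 at 10 mg/L against its own controls (p = 0.00348, adjusted 0.600). Tnc, tenascin-C, gave 1.75 ± 0.73 (adjusted p = 0.751), and Ddr1, a receptor kinase for collagen, -0.35 ± 0.12 (p = 0.0104, adjusted 0.680) in that comparison. Of the integrin subunits, Itga10 gave -0.51 ± 0.20 and Itgb1 0.19 ± 0.08 at 500 mg/L against 10 mg/L (adjusted p = 0.392 and 0.406). Thbs2, thrombospondin 2, differed between the dose effects by -0.72 ± 0.36 (adjusted p = 0.914).

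Cell markers were set beside these values. At 10 mg/L, where 8 of 8 basement membrane collagens were above the pooled controls, so were 11 of 11 endothelial markers (median 0.31). Of those 11, 7 had an unadjusted p under 0.05 and none passed the adjusted threshold (smallest adjusted p = 0.633, edgeR), where 6.22% and 0.00561% of all genes did. Their summed level was 320 to 514 CPM in the controls, 400 to 580 at 10 mg/L and 333 to 509 at 500 mg/L. Smooth muscle and pericyte markers were above 0 in 7 of 10 (median 0.10), stromal markers in 6 of 8 (0.03), granulosa markers in 5 of 8 (0.05) and luteal markers in 4 of 4 (0.78). Among theca markers, log2 changes were 0.50, 0.26 and 0.01 for Cyp11a1, Lhcgr and Ptch1, and -0.05, -0.16 and -0.29 for Gli1, Insl3 and Cyp17a1. Changes ran from -0.22 to 0.10 for leukocyte, -0.05 to 0.18 for oocyte and -0.52 to 0.15 for surface epithelium markers. For 500 mg/L against the pooled controls the counts were 7 of 11 endothelial (median 0.02), 3 of 10 smooth muscle and pericyte (-0.02), 1 of 8 stromal (-0.14), 4 of 8 granulosa (0.01) and 2 of 4 luteal markers (-0.17). Against the controls of experiment 1, changes at 500 mg/L ran from -0.67 to -0.13 for leukocyte and 0.04 to 0.41 for oocyte markers. In that comparison they ran from -0.09 to 0.40 for surface epithelium markers, and from -0.52 (Cyp11a1) to 1.24 (Cyp17a1) for theca markers. None of these passed the adjusted threshold (edgeR). The part of the marked cells in the collagen values was not tested.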

How the data were processed

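Values were read from the deposited table of estimated counts per gene, which are not normalized and were made by the authors with tools listed in the submitters' processing notes (Salmon 1.2.0 and FastQC 0.11.8, with limma and edgeR in R 4.1.2, on build GRCm39). The sources used here do not say how transcripts were summed to genes. The authors' deposited result table holds log2 average expression, p-values, an F score over the groups and signed fold changes, and was used only where named. Counts were rounded (median change of a library total 80.0 counts), filtered by filterByExpr, scaled by TMM and fitted over all 20 mice in edgeR 4.0.16 (R 4.3.3) with robust quasi-likelihood, once with 1 mean per group and once with 4 means by dose and experiment. Alternatives used DESeq2 1.42.0 and limma 3.58.1 (voom). CPM use TMM-scaled totals of the tested genes, and levels per kb use the longest coding transcript of GENCODE M21 (42 of 42 matched). Correlations used log2 CPM with a prior count of 2. Library totals were 39856751 to 67490019, and no mouse was a copy of another in its set (40 pairs, lowest chi-square 22.0 and highest 151 for each gene compared). The script was tested on simulated data. Members, lists and tests were chosen with earlier results of these data known. Named genes were the 10 highest members and, in each comparison, the 3 with the smallest p in each direction at a mean of at least 1 CPM, and for other lists those with the smallest p. A gene that this rule names is not reported here.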

Additional observations from a re-analysis of the deposited data

Results flagged for a closer look

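Of 125 groups of mice checked over 25 named members, 9 had a mouse far from the others, and chance flags about 1 in 20 groups. All 9 were high, and 8 of them were control replicate 7. That mouse had 7.22 CPM of Col13a1, against 5.43 in the next of the 10 controls and 5.19 in the next control of experiment 1. It had 5.38 CPM of Col5a3, against 3.14 and 2.91 in those groups. Among the controls of experiment 1 it also had 586 CPM of Col1a1 (next 286), 379 CPM of Col6a2 (next 247) and 223 CPM of Col6a3 (next 135), and among all controls 127 CPM of Col6a5 (next 56.8). Control replicate 6 had 4.36 CPM of Col25a1, against 3.10 in the next of the 10 controls.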

How the results depend on the processing

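The number of collagens past the threshold was 0 in all 186 refits over the 7 comparisons: DESeq2, DESeq2 size factors, limma-voom, no filter on low counts, the authors' kept genes, only the groups compared, experiment as an added term, the replicate block, and each of the 20 mice left out in turn (0 to 0). Log2 changes of named members kept their sign in 1242 of 1250 refits, of which those of Col10a1 and Col17a1 were added after seeing the data. The exceptions were Col6a5 at 10 mg/L against all controls (0.013 with limma-voom, -1.004 to 0.10 over mice left out, the highest without control replicate 7, 0.81 with the replicate block, 0.81 with experiment as an added term) and at 500 mg/L (0.054 with the replicate block), Col5a3 between the control sets (-0.030 to 0.38, the lowest without control replicate 7), Col24a1 at 500 mg/L against its own controls (-0.20 to 0.015, the highest without control replicate 8) and Col9a2 in the difference between the dose effects (-0.065 to 0.43, the lowest without 500 mg/L replicate 3). The cause was not tested. Correlations were refitted with library totals without TMM, without the 2 farthest mice and in each experiment alone. Of 160 refitted correlations 137 kept their side of the threshold, 21 no longer passed, 1 newly passed, and Col1a1 with Serpinh1 turned to -0.174 in experiment 2 alone.

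Whether replicate numbers pair the mice could not be decided. Same-numbered mice among the controls of experiment 2 and both doses had correlations of -0.128 to 0.228. They correlated best with their own number in 1, 3 and 1 of 5 cases. With 5 pairs per set, weak correlations cannot exclude pairing. The controls of experiment 1 carry other numbers and were not set against the mice at 500 mg/L of their own experiment. The replicate block is therefore given only here. It called 0 collagens, and 0, 17 and 8 of all genes in the 3 comparisons among groups, against 1, 2 and 2 without it. Of all genes, DESeq2 called 7, 87 and 123 in those comparisons, 26, 5, 201 and 15 in the own-control ones, against 0, 0, 28 and 0 in edgeR. Col2a1, Col10a1 and Col17a1, with means under 1 CPM, rest on few counts, so depth limits their values.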
